A study of Mus musculus with 24 samples.

Results

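The comparison sets the wild-derived mouse strains CAST/EiJ and WSB/EiJ against C57BL/6J and NZO/HiLtJ in subcutaneous fat on a standard diet. It covers 12 of the 24 libraries of the series, 6 on each side. The genes described are those for which all 6 libraries of one side lay beyond all 6 of the other, the pattern seen in Tst. They number 3920 of the 19038 genes tested, of which 1853 were higher and 2067 lower in the wild-derived side.

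The study profiled inguinal fat pads of female mice by RNA-seq to compare 4 inbred strains on 2 diets. C57BL/6J is the common reference strain and NZO/HiLtJ a strain prone to obesity and diabetes, while CAST/EiJ and WSB/EiJ descend from mice caught in the wild. Every strain contributed 3 mice per diet, all aged 26 weeks and kept at The Jackson Laboratory, which supplied them. The standard diet held 17% of its energy as fat. The second diet was rich in fat (45% of energy) and sucrose, and its 12 libraries serve here as a separate measurement. Each library came from 1 mouse, and poly(A) RNA was sequenced.

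Subcutaneous fat stores triglyceride in adipocytes, which can also make fatty acids from glucose and burn them in mitochondria. The inguinal depot can acquire beige adipocytes, which express Ucp1 and produce heat. As fat mass grows, adipocytes make more leptin, and the depot gains extracellular matrix and macrophages.

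Standard-diet libraries held 61750533 to 84009032 counts. Levels are in counts-per-million (CPM), a gene's share of the library total, scaled by trimmed means within a diet. Side differences are log2 differences between the averages of the strain levels ± standard error, so they need not equal the ratio of the printed means. The call threshold was an adjusted p of 0.05 in edgeR's quasi-likelihood test over all genes. Adipoq, the adiponectin gene that marks adipocytes, lay between 1680 and 2420 CPM in all 12 libraries. Replicate 2 of the CAST/EiJ standard-diet group held 5430 CPM of summed skeletal muscle markers, against at most 118 CPM in the other libraries. Epcam, an epithelial marker, was highest in WSB/EiJ standard replicate 3, at 5.67 CPM. Levels of Adipoq, Epcam and Alb and all marker sums are in CPM over the unscaled total.

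The sides differed at a large share of genes. Of all genes tested, 27% were called higher and 31.6% lower in the wild-derived side. Genes without overlap made up 9.73% (higher) and 10.9% (lower) of those tested. That criterion used the same libraries, so the standard-diet values of these genes are a description. All 1853 higher genes and 2065 of the 2067 lower genes were also called by the test. Their median difference was 0.721 for the higher and -0.956 for the lower genes, and 581 and 984 of them differed by at least 1. Called differences of that size made up 6.68% (higher) and 11% (lower) of all genes. The median over all genes was -0.034. Without replicate 2 of the CAST/EiJ group 2271 genes were higher and 2185 lower without overlap. The first set then held all 1853 of the higher genes, and the second 1979 of the 2067 lower genes. Without replicate 3 of the WSB/EiJ group the numbers were 2119 and 2335.

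Separation between the sides was narrow for most of these genes. The lowest library of the higher side exceeded the highest of the lower side by a median factor of 1.146 for higher and 1.174 for lower genes. That factor reached 2 for 114 higher and 183 lower genes. At the edge, Gpi1, a glycolytic isomerase, just met the criterion with 274.6 CPM in the lowest wild-derived library and 274.5 CPM in the highest other library. Ndufb8, a subunit of complex I, just missed it with 245.20 against 245.22 CPM.

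Upstream sequences are shown for 4 genes that the results below turn on. Acacb and Slc25a1 belong to the list of fatty acid synthesis genes and were higher in the wild-derived side. Pcx makes oxaloacetate, which serves fatty acid synthesis, and is among the most abundant of the higher genes. Tph2 is among the genes with the largest differences in the lower direction. The windows are the 250 bases before the annotated RefSeq start, from build GRCm38.p6, written 5′ to 3′ on the gene's strand. Acacb lies at chr5:114165268-114165517 (plus strand), Slc25a1 at chr16:17928220-17928469 (minus strand), Pcx at chr19:4510222-4510471 (plus strand, the first of its starts) and Tph2 at chr10:115185023-115185272 (minus strand). Capitals mark exact matches on either strand. The first motif searched, the E-box, has the letters CACGTG. The second, the CCAAT box, is named for its letters and reads ATTGG when it lies on the other strand. The last, the TATA box, was searched as TATAAA.
Acacb: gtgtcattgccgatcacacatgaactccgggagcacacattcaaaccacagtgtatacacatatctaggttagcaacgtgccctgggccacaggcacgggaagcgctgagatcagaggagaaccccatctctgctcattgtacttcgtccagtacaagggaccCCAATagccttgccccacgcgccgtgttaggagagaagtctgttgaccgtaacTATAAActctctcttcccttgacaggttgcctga
Slc25a1: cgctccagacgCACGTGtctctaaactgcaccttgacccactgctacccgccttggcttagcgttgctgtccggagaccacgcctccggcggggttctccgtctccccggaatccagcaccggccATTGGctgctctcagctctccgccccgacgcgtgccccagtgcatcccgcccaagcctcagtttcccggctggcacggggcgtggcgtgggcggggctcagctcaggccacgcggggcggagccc
Pcx: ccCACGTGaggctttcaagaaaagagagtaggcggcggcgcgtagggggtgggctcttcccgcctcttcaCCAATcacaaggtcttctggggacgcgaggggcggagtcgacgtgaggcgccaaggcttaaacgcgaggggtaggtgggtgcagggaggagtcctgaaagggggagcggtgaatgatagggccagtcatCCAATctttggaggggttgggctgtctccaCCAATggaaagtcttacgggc
Tph2: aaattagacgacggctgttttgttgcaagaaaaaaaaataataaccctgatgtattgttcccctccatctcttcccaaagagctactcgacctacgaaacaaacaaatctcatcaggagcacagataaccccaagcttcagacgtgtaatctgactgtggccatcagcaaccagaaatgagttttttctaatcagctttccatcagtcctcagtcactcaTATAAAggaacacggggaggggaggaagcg

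Positions are bases before the start. The Acacb window held a CCAAT box at 87 and a TATA box at 34. Slc25a1 held an E-box at 239 and a CCAAT box at 125, Pcx an E-box at 248 and CCAAT boxes at 180, 51 and 21, and Tph2 a TATA box at 30. None of these matches overlapped another. Windows were on hand for 12463 of the 19038 genes tested. The E-box occurred in 10.3% of the 1509 windows of the higher genes and in 5.93% of the 1838 windows of the lower genes, against 7.69% of the windows of genes tested and 6.02% of all 32851 windows. The CCAAT box occurred in 34.4% and 34.8% of the windows of higher and lower genes, in 34.6% of those of genes tested and in 33.8% of all windows. In the fatty acid synthesis list 10 of 19 windows (52.6%), from 14 genes, held one. The share was 35% of 20 windows in the respiratory chain list, 37.5% of 16 in the matrix list and 10% of 10 in the fat mass list. TATAAA was found in 5.7% of the windows of higher genes, 6.91% of those of lower genes, 7.4% of those of genes tested and 12.4% of all windows. The ETS letters CCGGAAG occurred in 13.9% and 10% of the windows of higher and lower genes, in 11.4% of those of genes tested and in 6.91% of all windows. The NRF-1 letters occurred in 1.86% and 0.816% of the windows of higher and lower genes. Their share was 1.37% in the windows of genes tested and 0.782% in all windows. A match is a run of letters and was not tested as a binding site.

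The product of Tst, thiosulfate sulfurtransferase, works in mitochondria and helps to clear sulfide. Levels on the standard diet were 8.94, 13.7 and 5.56 CPM in the C57BL/6J mice and 12.2, 12.8 and 11.6 CPM in the NZO/HiLtJ mice. They were 104.2, 42 and 45 CPM in CAST/EiJ and 84.2, 120.3 and 81.8 CPM in WSB/EiJ. The 2 sides were far apart, with the lowest wild-derived library at 3.07 times the highest of the others. The difference was 2.86 ± 0.28 (adjusted p = 8.11e-06). Neither CAST/EiJ against WSB/EiJ (adjusted p = 0.219) nor NZO/HiLtJ against C57BL/6J (adjusted p = 0.501) passed for Tst.

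Of 11 measured genes of sulfide oxidation and sulfur amino acid metabolism, 6 were higher and 1 lower in the wild-derived side. Without overlap were 5 higher genes and 1 lower gene. The list median was 0.27. Mpst, a sulfurtransferase related to Tst, lay at 64.3 CPM or more in the wild-derived libraries and at 61.3 CPM or less in the others (0.55 ± 0.08). Cdo1, which oxidises cysteine, lay at 735.7 CPM or more and at 611.5 CPM or less (0.69 ± 0.08). Ethe1, the persulfide dioxygenase, and Suox, the sulfite oxidase, were higher by 0.78 ± 0.11 and 0.57 ± 0.09, both with the nearest libraries of the 2 sides close together. Tstd3, a further rhodanese-domain gene, was lower by -0.51 ± 0.10. Sqor, which passes sulfide electrons to ubiquinone, was called at 0.16 ± 0.06 with overlapping sides, and its call was lost in 9 of 20 other analyses. The transsulfuration genes Cth (0.27 ± 0.11) and Cbs (-0.01 ± 0.21) did not pass, nor did Csad (0.24) and Tstd2 (0.08).

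Genes of fatty acid synthesis were higher in the wild-derived side almost throughout the list. Of 15 genes 14 were called higher, 8 of them without overlap, with a median of 2.07. Acacb, the acetyl-CoA carboxylase of the mitochondrial surface, lay at 51.9, 93.1 and 45.3 CPM in the C57BL/6J libraries and 77.5, 205.6 and 108.9 CPM in NZO/HiLtJ. It reached 1417, 673 and 945 CPM in CAST/EiJ and 1299, 1551 and 1319 CPM in WSB/EiJ. All wild-derived libraries were above all others, and the difference was 3.70 ± 0.30 (adjusted p = 2.25e-06). Slc25a1, which exports citrate from mitochondria, lay at 778.9 CPM or more in the wild-derived libraries and at 577.2 CPM or less in the others (2.34 ± 0.23). Me1, the malic enzyme that supplies NADPH, was at 831 to 2138 CPM in CAST/EiJ and 4652 to 8024 CPM in WSB/EiJ, against 280 to 692 CPM on the other side (2.81 ± 0.31). Thrsp, a lipogenic regulator, Mlxipl, the glucose-responsive factor ChREBP, and the desaturase Scd1 were also without overlap. Scd1 belongs to a family of near-identical copies, so its level is uncertain.

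Some genes of the list were far higher in WSB/EiJ than in CAST/EiJ. Acly, the citrate lyase, lay at 16130 to 27880 CPM in WSB/EiJ but at 567 to 1959 CPM in CAST/EiJ, inside the 562 to 3643 CPM of the other side. Its side difference of 1.38 ± 0.42 passed (adjusted p = 0.0148) while the sides overlapped. Fasn, Acaca and Elovl6, the chain synthesis and elongation enzymes, likewise overlapped and were called at 2.14, 2.13 and 3.42. G6pdx was the gene of the list that did not pass (0.10).

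The naming rule, which leaves out families of near-identical copies such as that of Scd1, took the 6 most abundant genes without overlap that were higher by at least 1. Cfd, the adipocyte factor adipsin, was at 6460 ± 1410 CPM (SD over 6 libraries) against 1690 ± 1110 CPM (2.13 ± 0.22). Pcx, pyruvate carboxylase, lay at 1165, 1423 and 1431 CPM in C57BL/6J mice, 1115, 1527 and 1299 CPM in NZO/HiLtJ, 4447, 2714 and 3777 CPM in CAST/EiJ and 7032, 6376 and 5306 CPM in WSB/EiJ. The groups of the lower side lay together, and those of the higher side were 1.85 ± 0.14 above them (adjusted p = 1.25e-06). Acsl1, which activates fatty acids, was at 4750 ± 1300 against 1830 ± 284 CPM. Chpt1, of phosphatidylcholine synthesis, was at 4910 ± 1010 against 2320 ± 271 CPM, and Selenop, the secreted selenium carrier, at 3210 ± 1360 against 1400 ± 112 CPM. Selenop was at 4131 to 4688 CPM in CAST/EiJ but at 1674 to 2433 CPM in WSB/EiJ, against at most 1510 CPM on the other side. Me1, above, is the sixth.

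**Figure D1:**
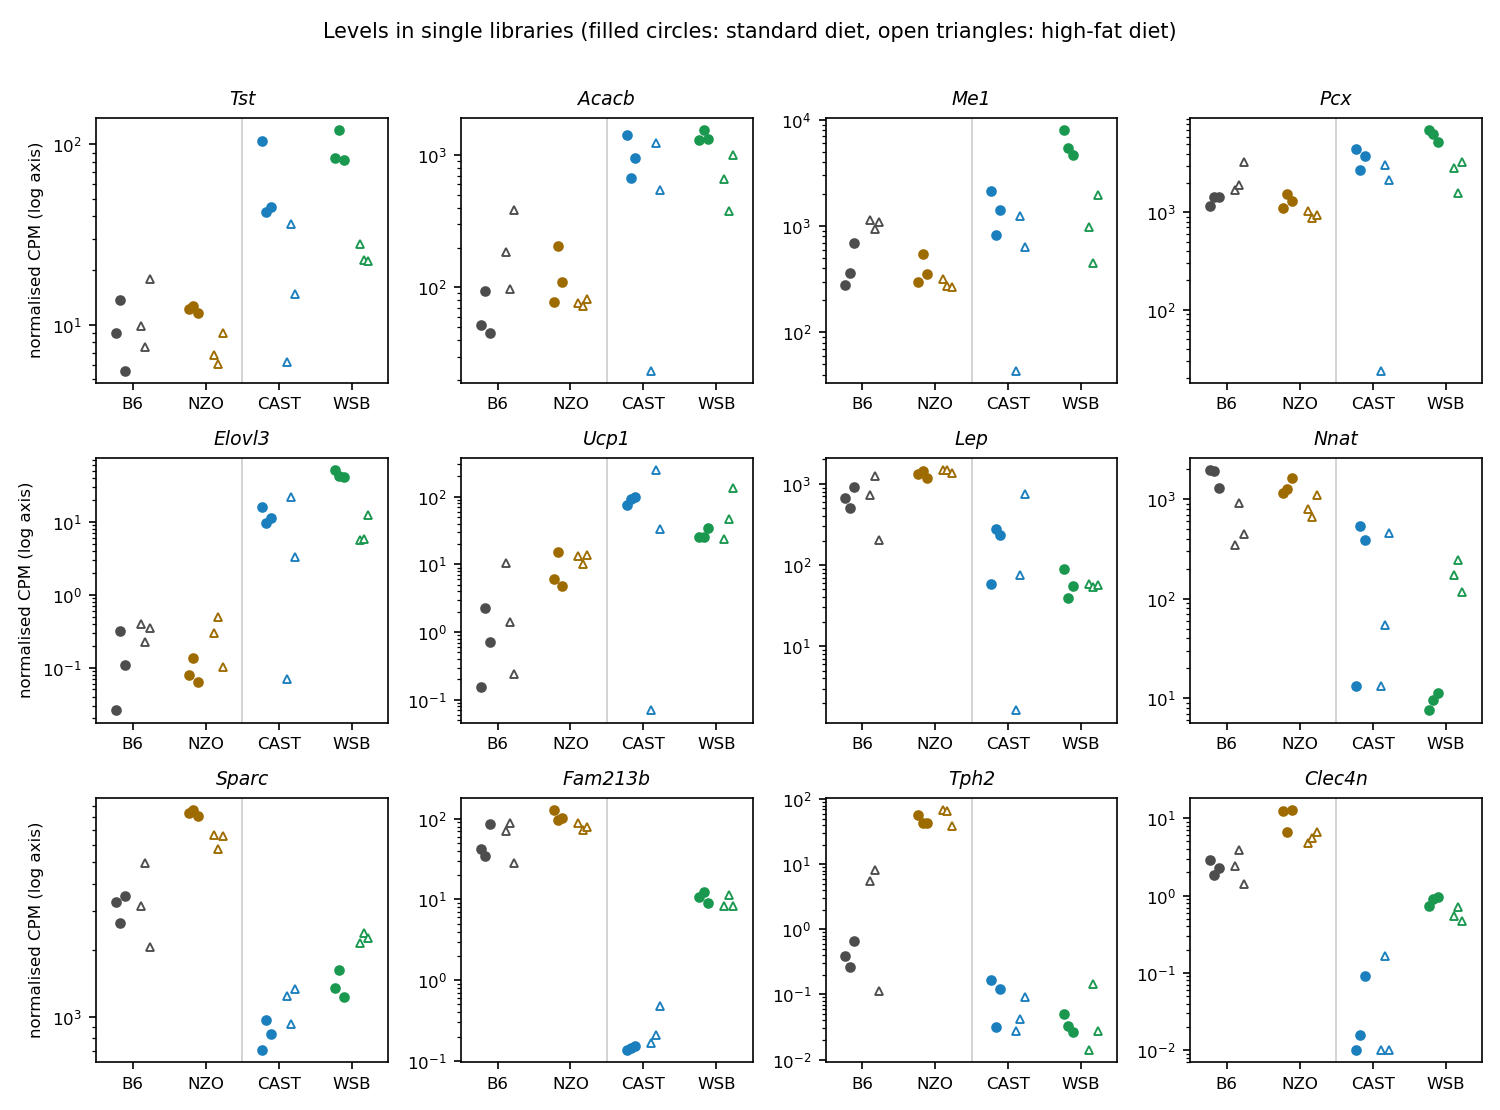
Levels of 12 genes in single libraries in normalised CPM on log axes, with C57BL/6J (B6) and NZO/HiLtJ (NZO) to the left of the grey line and CAST/EiJ and WSB/EiJ to its right; filled circles are standard-diet and open triangles high-fat libraries, and levels of 0 are drawn at 0.01 CPM. On the standard diet the circles on the 2 sides of the line do not overlap in any of the 12 panels.

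Respiratory chain genes were higher together by a small amount. All 26 nuclear-encoded subunits of the chain and ATP synthase were called higher in the wild-derived side, and 24 had no overlap. Their differences ran from 0.41 to 1.47 with a median of 0.83. Uqcrc2, of complex III, lay at 170.7, 181.2 and 176.1 CPM in C57BL/6J mice, 199.2, 216.5 and 201.8 CPM in NZO/HiLtJ, 387.3, 288.4 and 339.9 CPM in CAST/EiJ and 481.2, 459.1 and 420.6 CPM in WSB/EiJ. Each wild-derived library exceeded each other library, by 1.04 ± 0.07 on average (adjusted p = 7.04e-07). Ndufs1, of complex I, went from 150 ± 14.0 to 322 ± 55.6 CPM between the sides (1.09 ± 0.08). Uqcrfs1, the Rieske protein, differed by 1.15 ± 0.08. Cox7a1, the subunit typical of muscle and brown fat, had the largest difference of the list and was highest in CAST/EiJ (6.38, 7.36 and 7.65 CPM), with 2.38 to 2.87 CPM in WSB/EiJ and 1.02 to 2.1 CPM on the other side. The 2 genes with overlap were Ndufb8 and Cox6a1.

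Genes of fatty acid oxidation and branched-chain amino acid breakdown were mostly higher too. In the oxidation list 15 of 19 genes were higher and 2 lower (median 0.64), and 11 higher genes and 1 lower gene had no overlap. With all 24 libraries in 1 fit 8 genes of this list were called higher. Hadhb and Hadha, which form the trifunctional protein, and Acadl, the long-chain dehydrogenase, were each higher by 1.2 or 1.21. Cpt1a, the liver form of the carnitine transferase that admits fatty acids to mitochondria, was lower (26.8 ± 8.46 against 44.9 ± 2.89 CPM, -0.79 ± 0.10). Acadvl, the very-long-chain dehydrogenase, was the other lower gene (-0.20 ± 0.06) and overlapped, at 65.2 to 80.4 CPM in CAST/EiJ and 592 to 646.6 CPM in WSB/EiJ against 211.5 to 276.3 CPM, so that its side means ran the other way. Of 17 branched-chain genes 15 were higher, 9 without overlap (median 0.65). Bckdhb, of the branched-chain ketoacid dehydrogenase, was at 132.5 CPM or more in the wild-derived libraries and 97.7 CPM or less in the others. Dld, the shared dehydrogenase subunit, differed by 1.07 ± 0.09. Mut, the methylmalonyl-CoA mutase, had means of 239 ± 29.3 and 123 ± 6.42 CPM.

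Genes of brown and beige adipocytes differed by more. Of 13 genes 11 were called higher and 1 lower, with 6 higher genes free of overlap and a median of 1.92. Ucp1, which uncouples respiration to make heat, lay at 0.154, 2.27 and 0.725 CPM in the C57BL/6J libraries and 6.18, 15.1 and 4.79 CPM in NZO/HiLtJ. It was at 76.1, 93.3 and 97.7 CPM in CAST/EiJ and 25.3, 25.8 and 34.9 CPM in WSB/EiJ. CAST/EiJ was highest, and the wild-derived side lay above the other by 4.06 ± 0.46 (adjusted p = 2.45e-05). Elovl3, a cold-induced elongase, held 58 counts in all on the lower side and 11140 on the higher one. Its level was 9.67 to 15.8 CPM in CAST/EiJ and 41.6 to 52 CPM in WSB/EiJ, so WSB/EiJ led for Elovl3 and CAST/EiJ for Ucp1. Cidea, a lipid droplet protein of brown fat, was at 56.6 ± 7.54 against 7.0 ± 5.99 CPM (3.47 ± 0.23), and Ppargc1a, the coactivator of mitochondrial genes, at 14.9 ± 7.54 against 3.67 ± 1.30 CPM (1.92 ± 0.16). Ppargc1a was at 7.05 to 10.6 CPM in CAST/EiJ and at 19 to 23.5 CPM in WSB/EiJ. Cox8b and Ppara also had no overlap. Prdm16, a determinant of brown fat identity, was lower by -0.90 ± 0.14 with overlapping sides, and did not pass with all 24 libraries in the fit.

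**Figure D2:**
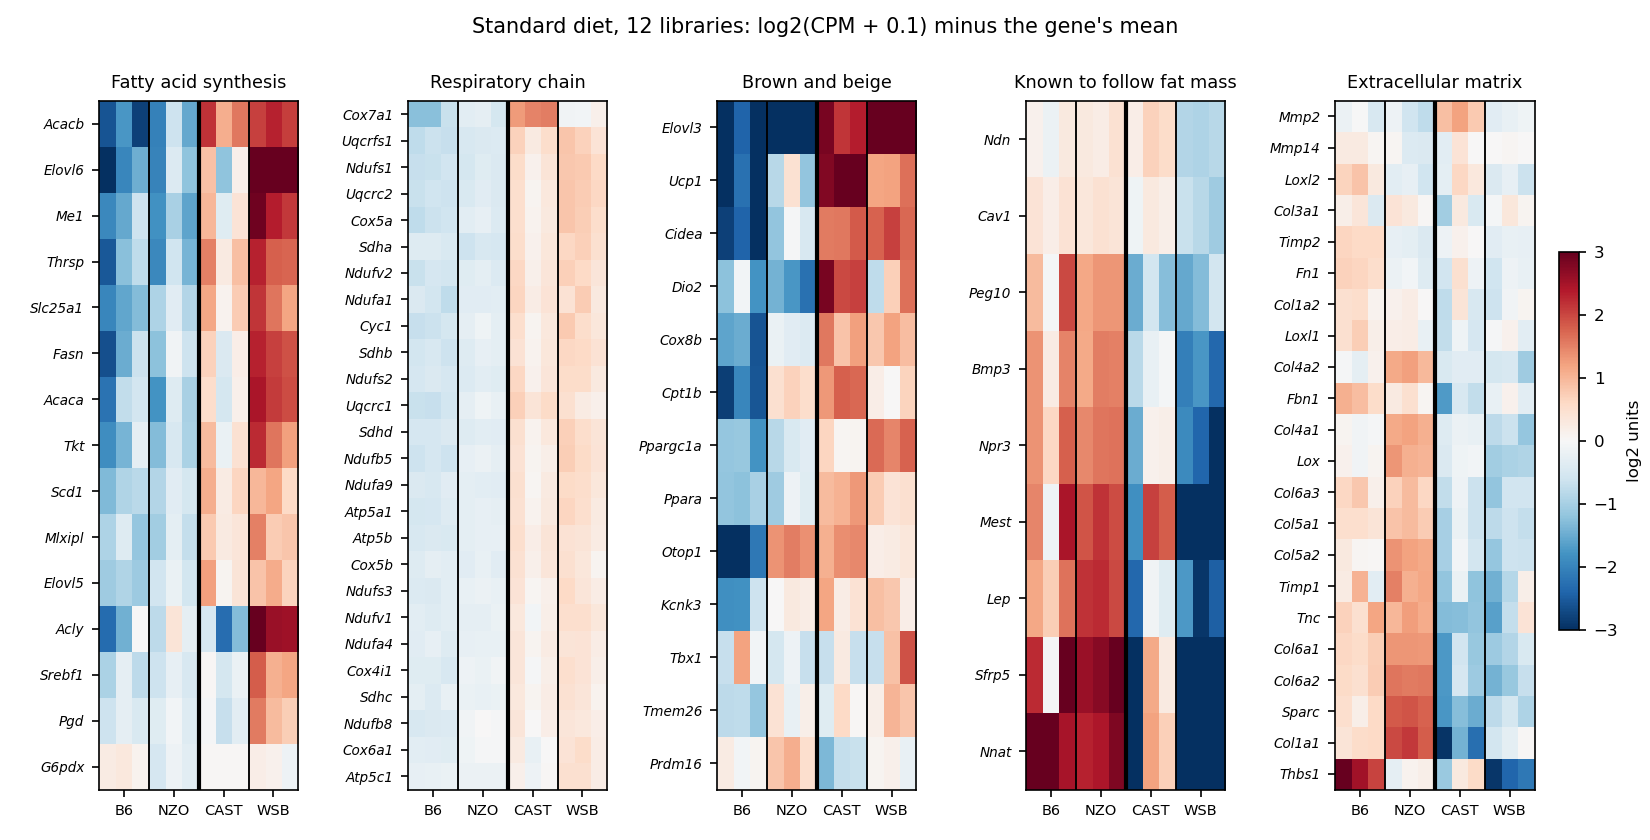
Heat maps of 5 gene lists in the 12 standard-diet libraries, 3 per strain, showing log2(CPM + 0.1) minus the gene's mean, with colours cut at 3 log2 units; the thick line parts C57BL/6J (B6) and NZO/HiLtJ (NZO) from the wild-derived strains. All 26 respiratory chain genes are on average blue to the left of that line and red to its right, and the 9 genes known to follow fat mass run the other way.

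The largest differences in the higher direction, by the naming rule, were in genes of varied roles. Gchfr, the feedback regulator of tetrahydrobiopterin synthesis, lay at 0.0879 to 0.161 CPM in C57BL/6J mice, 3.07 to 3.91 CPM in NZO/HiLtJ and 10.5 to 26.8 CPM in the wild-derived side (4.92 ± 0.25). Ncam2, a neural cell adhesion molecule, was at 12.5 CPM or more against 3.73 CPM or less (3.72 ± 0.24). Both genes were high in CAST/EiJ and in WSB/EiJ.

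Other genes of that group were far higher in 1 wild-derived strain or library than in the rest. Mill1, an MHC class I-like gene, had 1356, 1039 and 1901 counts in WSB/EiJ, but 14, 6 and 12 counts in CAST/EiJ and 4 counts on the whole other side. Ntng1, which encodes netrin-G1, was at 16.9 to 29.8 CPM in CAST/EiJ and only 0.302 to 0.73 CPM in WSB/EiJ, just above the other side's maximum of 0.226 CPM. Acpp, a prostatic acid phosphatase, was at 35.2 to 41.9 CPM in WSB/EiJ and 1.17 to 2.04 CPM in CAST/EiJ. Aspg, an asparaginase, was higher in WSB/EiJ (31.8 to 61.5 CPM) than in CAST/EiJ (6.88 to 15.6 CPM), with up to 5.46 CPM on the other side. Actn2, the sarcomeric actinin, held 3395 of its 3968 wild-derived counts in replicate 2 of the CAST/EiJ group, the library with the muscle markers. Its difference of 8.36 ± 1.67 became 5.48 without that library, still past the threshold, and it was not called by DESeq2 or limma-voom.

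Of 16 mature adipocyte genes 10 were called higher, 6 of them without overlap, with a median of 0.36. Adipoq itself differed by 0.29 ± 0.09 and Fabp4, a fatty acid carrier, by 0.37 ± 0.07. Pparg, the master regulator of adipocytes, did not pass (0.21), nor did Plin1, Plin4, Cidec, Cd36 and Lpl, genes of droplet coats and lipid uptake. Retn, the hormone resistin, was at 781.3 CPM or more in the wild-derived libraries and 764.4 CPM or less in the others (1.08 ± 0.12). When all 24 libraries shared 1 fit, whose spread was larger, 1 of these adipocyte genes passed.

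Insulin signalling, lipolysis and hormone-handling genes were mixed, beside 27% of all genes called higher and 31.6% lower. Of 16 insulin signalling genes 9 were higher and 1 lower (median 0.29), and 4 with all 24 libraries in the fit. Irs1, the insulin receptor substrate, lay at 61.3 CPM or more against 54.7 CPM or less (1.06 ± 0.12) and Akt2, its downstream kinase, at 1138 CPM or more against 992.7 CPM or less (0.53 ± 0.06). Pde3b, the phosphodiesterase by which insulin curbs lipolysis, differed by 0.90 ± 0.10 with overlap. Ptpn1, the phosphatase that dampens the insulin receptor, was lower by -0.40 ± 0.06. Of 13 lipolysis genes 7 were higher and 2 lower, or 3 and 1 in the 24-library fit. Pnpla2, the triglyceride lipase, was at 7420 ± 1190 against 4150 ± 519 CPM, and Abhd5, its activator, differed by 0.90 ± 0.08. Its inhibitors G0s2 and Hilpda were the 2 lower genes, at -0.76 ± 0.15 and -1.25 ± 0.10, both without overlap. Adra2a, the alpha-2A adrenergic receptor, was at 2.44 to 3.22 CPM in CAST/EiJ and at 0.669 CPM or less in the other 3 strains (1.87 ± 0.25).

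Steroid and retinoid genes had 7 higher and 4 lower of 16 (4 and 2 in the 24-library fit). Hsd11b1, which regenerates active glucocorticoid, lay at 36.1 to 52.7 CPM in C57BL/6J mice, 146.8 to 192.9 CPM in NZO/HiLtJ, 213.6 to 375.3 CPM in CAST/EiJ and 705.2 to 1010 CPM in WSB/EiJ. Its 4 strains followed each other without overlap, and the side difference was 2.59 ± 0.17. Esr1, the estrogen receptor alpha, was at 143 ± 28.3 against 67.1 ± 32 CPM (1.22 ± 0.08), with NZO/HiLtJ lowest at 34.4 to 45.8 CPM. Hsd17b12, of fatty acid elongation and steroid conversion, was higher by 1.42 ± 0.15. Aldh1a3, which makes retinoic acid, was lower by -1.28 ± 0.14 without overlap. Aldh1a1 (-0.90) and Dhrs3 (-0.43), 2 further retinoid enzymes, were lower with overlap.

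Antioxidant and cholesterol genes showed fewer separations. For comparison, 27% of all genes were called higher and 31.6% lower. Of 20 antioxidant genes 11 were higher and 3 lower (5 higher in the 24-library fit). Prdx3, the mitochondrial peroxiredoxin, Prdx1, its cytosolic relative, and Gclc, of glutathione synthesis, were higher by 0.99, 0.67 and 0.59. Sod3, the extracellular superoxide dismutase, was lower at 79.4 ± 34.7 against 231 ± 52.2 CPM, and Gpx1, a glutathione peroxidase, at 83.6 ± 16.6 against 172 ± 43.5 CPM. Hmox1, the heme oxygenase, was lower by -0.58 with overlap. Of 17 cholesterol genes 5 were higher and 2 lower. Insig1, a brake on sterol synthesis, and Fdft1, the squalene synthase, had no overlap (1.63 ± 0.16 and 1.01 ± 0.08), whereas Nsdhl (1.03), Mvk (-0.41) and the regulator Srebf2 (-0.20) did, and the last 2 did not pass in the 24-library fit. The clock list had 7 higher and 4 lower of 15 genes (2 lower in the 24-library fit) and none without overlap. Per3, Nr1d2 and Ciart, of the negative arm, were higher by 0.99, 0.72 and 1.24, and the activators Clock, Arntl and Npas2 lower by -0.49, -1.20 and -1.17. In all 6 the 3 CAST/EiJ libraries lay outside the 9 others. The hour of dissection is not given in the sources used here.

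**Figure D3:**
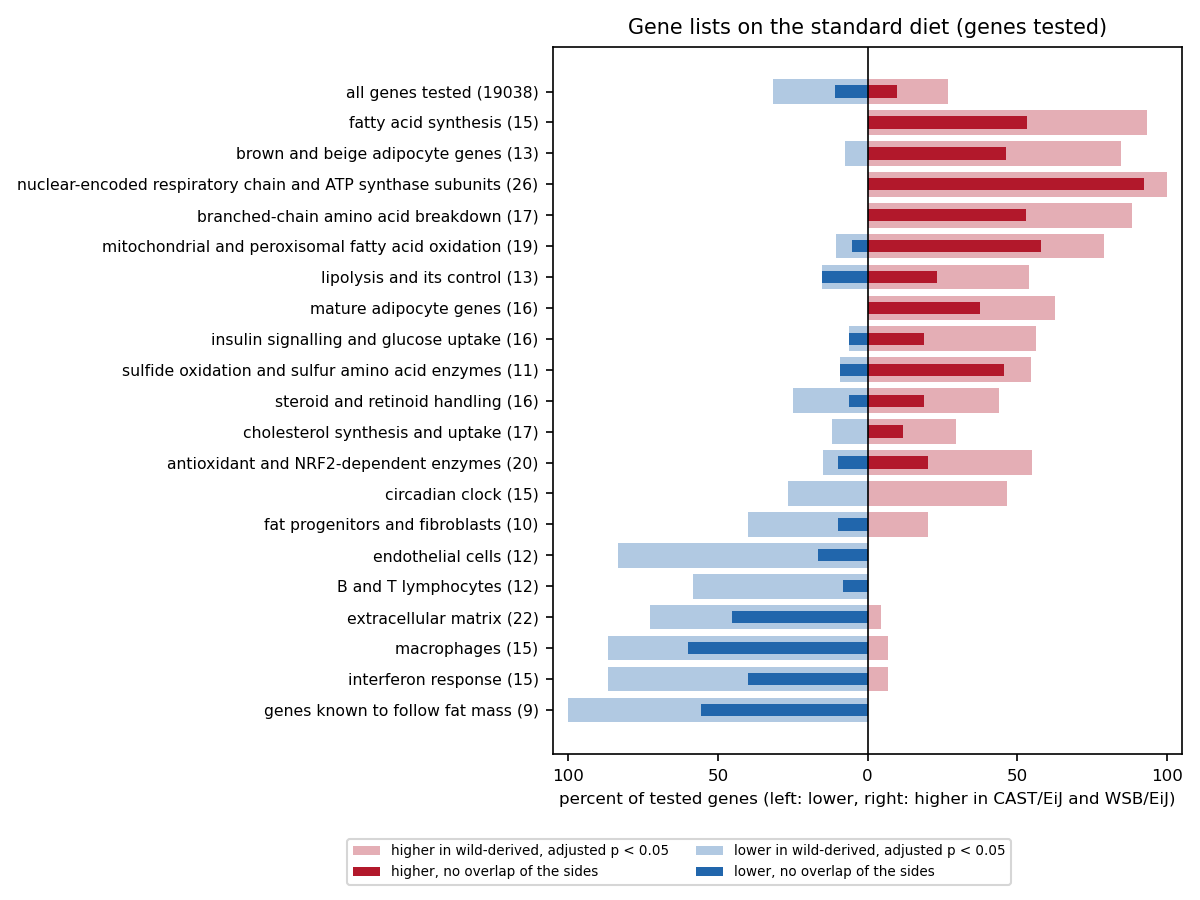
Percent of the tested genes of each list called higher (pale red, to the right) or lower (pale blue, to the left) in the wild-derived side on the standard diet, with the part without overlap as a narrow dark bar; lists are ordered by median difference and the number tested is in brackets. The respiratory chain list reaches 26 of 26 genes on the right and the genes known to follow fat mass 9 of 9 on the left, while all genes tested (top bar) lie at 27% and 31.6%.

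Genes known to follow fat mass were lower in the wild-derived side. All 9 of the list were called lower, 5 without overlap, with a median of -2.74. Lep, the adipocyte hormone leptin, lay at 667.5, 502.9 and 921 CPM in C57BL/6J mice, 1336, 1420 and 1187 CPM in NZO/HiLtJ, 58.3, 278.2 and 234 CPM in CAST/EiJ and 90.1, 39.3 and 54.8 CPM in WSB/EiJ. Every wild-derived library was below every other one, by -3.15 ± 0.36 (adjusted p = 2.93e-05). Npr3, the natriuretic peptide clearance receptor, and Bmp3, an antagonist of bone morphogenetic signalling, were lower by -2.74 ± 0.31 and -2.48 ± 0.23. Nnat, the imprinted gene neuronatin, was at 1550 ± 358 CPM on the other side. Among the wild-derived mice it lay at 13.2, 543 and 389 CPM in CAST/EiJ and 7.55, 9.7 and 11.3 CPM in WSB/EiJ (-4.81 ± 0.67). Mest, an imprinted gene of fat expansion, overlapped, with 31, 462 and 388 CPM in CAST/EiJ and 6.17 to 7.97 CPM in WSB/EiJ against 101.3 to 603.2 CPM. Ndn, also of the list, was not lower in CAST/EiJ (15.27 to 21.53 CPM) than on the other side (11.65 to 18.1 CPM). It was at 6.9 to 7.43 CPM in WSB/EiJ. Cav1 reached from 2192 to 2949 CPM in CAST/EiJ, into the 2740 to 3315 CPM of the other side. In Lep, Nnat and Mest alike, replicate 1 of CAST/EiJ lay below the other 2 CAST/EiJ libraries, and for Tst, Acacb and Me1 it lay above them. Body weight and fat mass were not used here.

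Extracellular matrix genes were lower as well. Of 22 genes 16 were called lower and 1 higher, 10 of the lower ones without overlap, with a median of -1.15. Sparc, a collagen-binding protein of the matrix, lay at 3306, 2650 and 3524 CPM in C57BL/6J mice, 8358, 8645 and 8057 CPM in NZO/HiLtJ, 705, 963 and 839 CPM in CAST/EiJ and 1351, 1632 and 1227 CPM in WSB/EiJ. The 4 strains formed 4 separate levels, and the sides differed by -2.25 ± 0.11 (adjusted p = 7.36e-08). Col4a1, of basement membranes, was lower by -1.11 ± 0.09 without overlap and Lox, the collagen cross-linking enzyme, by -1.18 ± 0.08 with overlap. The collagen VI genes Col6a1 and Col6a2 were at 252 ± 73.4 against 970 ± 249 CPM and at 210 ± 64.3 against 973 ± 347 CPM. Col1a1 was lower (-2.41 ± 0.22), but Col1a2 and Col3a1 did not pass (-0.44 and -0.24). Mmp2, a matrix protease, was the higher gene (0.72 ± 0.12), at 94.9 to 127.2 CPM in CAST/EiJ and at 54.3 CPM or less in the other strains.

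The most abundant lower genes included others of cell structure. Sptbn1, a spectrin of the membrane skeleton, was at 1180 ± 286 against 2330 ± 301 CPM (-1.02 ± 0.09), and Flna, an actin cross-linker, at 782 ± 312 against 1720 ± 106 CPM (-1.14 ± 0.23). Actg1 and Tuba1a, a cytoplasmic actin and a tubulin, were lower by -1.21 ± 0.05 and -2.86 ± 0.13. Both have near-identical relatives to which reads can be split, so their levels are uncertain.

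Markers of macrophages and of the interferon response were lower too. Of 15 macrophage markers 13 were called lower and 1 higher, 9 of the lower ones without overlap, with a median of -1.22. Their sum was 476 to 1000 CPM in the wild-derived libraries and 1070 to 1590 CPM in the others. Cd68, a lysosomal protein of macrophages, was at 38, 37.8 and 39.5 CPM in C57BL/6J mice, 77.2, 62.8 and 80 CPM in NZO/HiLtJ, 11.6, 15.5 and 13.2 CPM in CAST/EiJ and 22.3, 20.2 and 23.3 CPM in WSB/EiJ. The sides did not meet (-1.63 ± 0.08, adjusted p = 9.88e-08). C1qa, a complement gene of resident macrophages, was lower by -1.14 ± 0.06, and Itgax, the integrin CD11c, by -2.62 ± 0.22. The higher marker was Cd163 (0.22 ± 0.06), a scavenger receptor. In bulk tissue, fewer cells of a type and less RNA per cell cannot be told apart.

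Of 15 interferon genes 13 were lower and 1 higher, 6 of the lower ones without overlap (median -1.58). Isg15, a ubiquitin-like modifier, lay at 0.404 to 1.13 CPM against 1.98 to 4.23 CPM (-1.99 ± 0.15), and Oas2, a sensor of double-stranded RNA, at 5.17 ± 3.05 against 20.0 ± 3.60 CPM (-2.13 ± 0.17). Oasl2 was lower by -1.57 ± 0.12 and Mx2, an antiviral GTPase, was the higher gene (0.88 ± 0.16), both with overlap. Among all genes tested 27% were called higher and 31.6% lower, and 9.73% and 10.9% were higher and lower without overlap. Of 12 lymphocyte markers 7 were lower, 1 without overlap. Endothelial markers had 10 of 12 lower and 2 without overlap, with sums of 863 to 1060 CPM against 1350 to 1620 CPM. Progenitor and fibroblast markers had 2 higher and 4 lower of 10, with sums of 1120 to 2130 CPM in the wild-derived side inside the 960 to 2670 CPM of the other. Skeletal muscle markers had 9 of 12 called higher and none without overlap, the muscle-rich CAST/EiJ library included. Of 10 hepatocyte markers 2 were called lower, and Alb, the albumin gene, was highest in NZO/HiLtJ standard replicate 2 at 873 CPM. Markers of mesothelium and the intra-abdominal depot had 6 of 7 called higher and 1 lower, none without overlap. Their sums were 49.1 to 77.4 CPM in NZO/HiLtJ and 288 to 313 CPM in C57BL/6J. In CAST/EiJ they were 216 to 276 CPM and in WSB/EiJ 134 to 174 CPM. The part of these cell types in the gene differences was not tested.

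**Figure D4:**
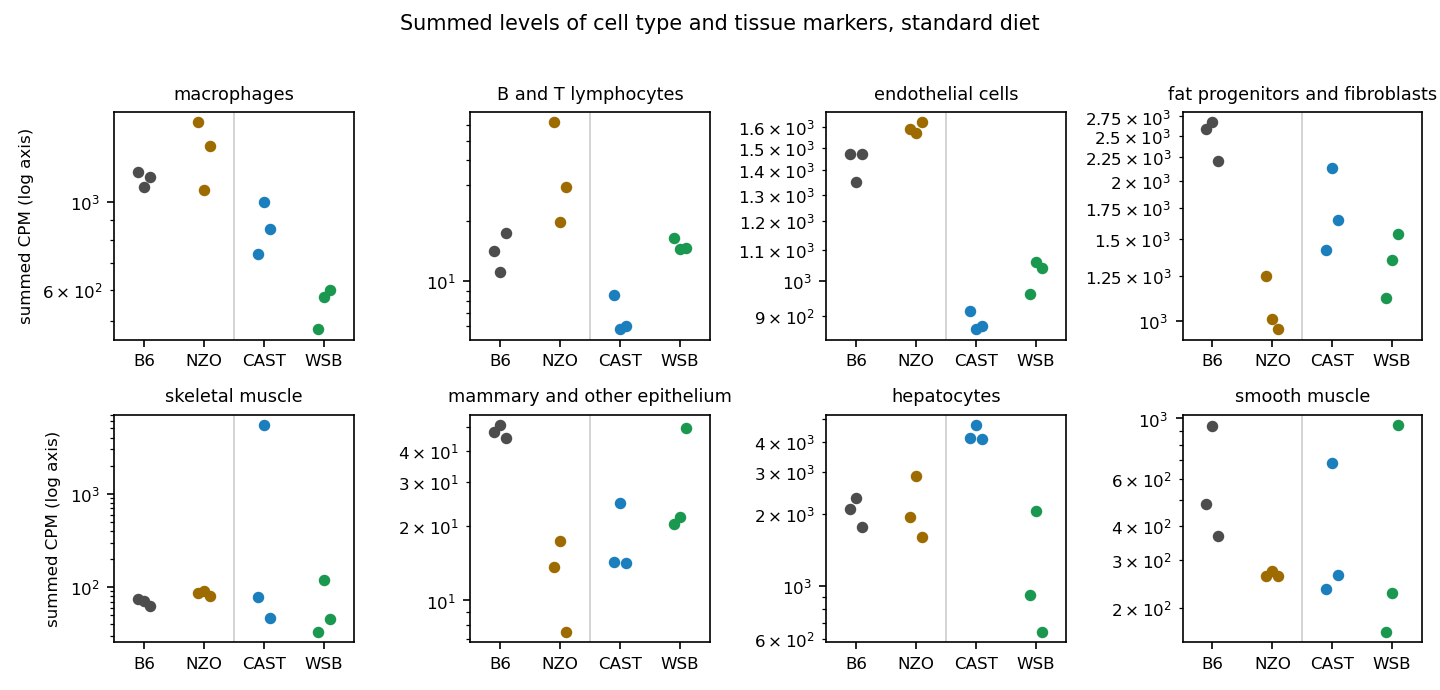
Summed levels of 8 marker lists in single standard-diet libraries in CPM over the unscaled total, on log axes, with C57BL/6J (B6) and NZO/HiLtJ (NZO) to the left of the grey line and the wild-derived strains to its right. Macrophage sums (476 to 1000 against 1070 to 1590 CPM) and endothelial sums (863 to 1060 against 1350 to 1620 CPM) part the sides, and 1 CAST/EiJ library stands apart for skeletal muscle at 5430 CPM; the hepatocyte list includes Pck1, which adipocytes also express.

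Several of the lowest differences were of immune genes that were at or near 0 in CAST/EiJ. Wfdc17, a protease inhibitor-like gene of myeloid cells, was listed at 0 in all 3 CAST/EiJ libraries, at 2.29 to 2.65 CPM in WSB/EiJ and at 3.84 to 7.64 CPM in the others. Its fitted difference of -6.28 rests on the zeros, and the ratio of the side means was 4.24. Ms4a7, a macrophage membrane protein, was at 0 to 0.108 CPM in CAST/EiJ and 7.37 to 8.56 CPM in WSB/EiJ, close to the 9.28 CPM of the lowest other library. Clec4n, a C-type lectin of myeloid cells, was at 0 to 0.0925 CPM in CAST/EiJ, 0.738 to 0.94 CPM in WSB/EiJ and 1.85 to 12.9 CPM on the other side. For these 3 genes CAST/EiJ held most of the separation.

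The same strain stood out for 2 genes of other roles. Fam213b, a prostamide synthase, was at 0.135, 0.144 and 0.154 CPM in CAST/EiJ, 10.8, 12.3 and 8.96 CPM in WSB/EiJ, 41.5, 34.6 and 85.8 CPM in the C57BL/6J libraries and 129.5, 95.5 and 103.4 CPM in NZO/HiLtJ. The difference was -5.94 ± 0.28 (adjusted p = 5.04e-08), and CAST/EiJ was also below WSB/EiJ by -6.19. Tmem45b, a transmembrane protein, was at 0.185 to 0.369 CPM in CAST/EiJ, 14.4 to 18.7 CPM in WSB/EiJ and 24 to 106.2 CPM in the others (-4.65 ± 0.23). Which strain's sequence the reads were aligned to is not given in the sources used here, and the part of alignment in levels near 0 was not tested.

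A further group had low levels in both wild-derived strains. Tph2, the neuronal tryptophan hydroxylase of serotonin synthesis whose upstream window is shown above, was at 58.1, 42.9 and 43 CPM in NZO/HiLtJ. It reached only 0.386, 0.264 and 0.672 CPM in C57BL/6J and 0.0263 to 0.168 CPM in the wild-derived side, which held 27 counts in all. NZO/HiLtJ was above C57BL/6J by 6.77 (adjusted p = 6.45e-07), so the side average of -6.17 ± 0.32 mostly reports that strain. Cdkl4, a cyclin-dependent kinase-like gene, was at 2.8 to 15 CPM on the other side and 0.166 CPM or less in the wild-derived side (-6.23 ± 0.32). Cacna1e, a neuronal calcium channel subunit, and Unc79, part of a sodium leak channel complex, were at 6.66 ± 2.47 and 7.04 ± 3.75 CPM on the other side. In the wild-derived libraries they reached at most 0.525 and 0.353 CPM (-5.25 ± 0.50 and -5.00 ± 0.39).

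Strains within a side often differed as well. Over all genes, 44.5% were called between CAST/EiJ and WSB/EiJ and 27% between NZO/HiLtJ and C57BL/6J. CAST/EiJ was above WSB/EiJ for 22% of them and below it for 22.5%. NZO/HiLtJ was above C57BL/6J for 14.5% and below it for 12.5%. Of the 1853 higher genes without overlap, CAST/EiJ was above WSB/EiJ for 300 (16.2%) and below it for 309 (16.7%). For 129 of these genes (6.96%) NZO/HiLtJ was above C57BL/6J, and for 184 (9.93%) below it. For 1057 of them (57%) neither pair was called, and all 4 pairs across the sides were called for 1486 (80.2%). Over all genes each of those 4 pairs was called for 50.8% (CAST/EiJ and C57BL/6J), 56.8% (CAST/EiJ and NZO/HiLtJ), 44.7% (WSB/EiJ and C57BL/6J) and 51% (WSB/EiJ and NZO/HiLtJ). Of the 2067 lower genes, CAST/EiJ was below WSB/EiJ for 485 (23.5%) and above it for 299 (14.5%). For 437 of these genes (21.1%) NZO/HiLtJ was above C57BL/6J, and for 127 (6.14%) below it. Neither pair was called for 956 (46.3%), and all 4 cross pairs for 1562 (75.6%). The counts with neither pair and with all 4 cross pairs were not made over all genes. Sparc, Cd68 and Itgax are among the genes with NZO/HiLtJ at the top. The criterion favours genes with little spread inside a side, so these shares describe the set.

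The high-fat libraries gave the same contrast in other mice. In them 10.9% of 19501 genes were called higher and 12.4% lower in the wild-derived side. Of the higher genes, 1836 could be tested, 514 (28%) were called in the same direction and 1 in the opposite one, and 91.9% had the same sign, with a median of 0.351. Of 2058 lower genes tested, 947 (46%) were called in the same direction and 4 in the opposite one, 87% had the same sign, and the median was -0.595. Over all genes tested on both diets 72.3% had the same sign. CAST/EiJ high-fat replicate 1 held 4.75 CPM of Adipoq and 175 CPM of Epcam, against 621 CPM of Adipoq or more in the other high-fat libraries. Without it 976 higher and 1319 lower genes were called in the same direction (53% and 64%), against 13.9% and 18% of all genes. The 3 WSB/EiJ and 1 of the C57BL/6J high-fat libraries also held 11.5 to 58.5 CPM of Epcam. Without any of these 5 libraries CAST/EiJ is alone on the wild-derived side, so that fit compares CAST/EiJ with C57BL/6J and NZO/HiLtJ. It called 1167 of the higher and 1322 of the lower genes in the same direction. Over all genes it called 3723 higher and 4087 lower, also more than with all 12 libraries.

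Among the named genes, some passed on the high-fat diet and others did not. Tst lay at 9.84, 7.5 and 18 CPM in C57BL/6J mice, 6.77, 6.06 and 8.94 CPM in NZO/HiLtJ, 6.23, 36.3 and 14.7 CPM in CAST/EiJ and 28.1, 23 and 22.6 CPM in WSB/EiJ. The sides overlapped, and the difference was 1.23 (adjusted p = 0.0456), or 1.42 (adjusted p = 0.00663) without replicate 1 of CAST/EiJ. Acacb was higher by 2.29 (adjusted p = 0.0451), Elovl3 by 4.70 (adjusted p = 0.0108) and Gchfr by 3.26. Fam213b was lower by -5.47, Wfdc17 by -5.48, Tph2 by -8.14 and Sparc by -1.50. The values of Pcx (0.52), Me1 (0.63), Acsl1 (-0.01), Chpt1 (-0.01), Selenop (0.00), Cacna1e (-0.66) and Unc79 (-1.78) did not pass. Without CAST/EiJ high-fat replicate 1 Pcx was called at 0.79 (adjusted p = 0.0417), while Me1 (0.90), Acsl1 (0.27), Chpt1 (0.25), Selenop (0.20), Cacna1e (-2.03) and Unc79 (-2.25) were not. WSB/EiJ high-fat replicate 2 held 21.3 CPM of Cacna1e and 15.7 CPM of Unc79, the highest of all libraries for both genes. That library also held 2410 CPM of summed nervous tissue markers, against at most 77.7 CPM in the other 23, and their part in these values was not tested.

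The lists were also counted on the high-fat diet, with all 12 libraries and without CAST/EiJ high-fat replicate 1. Over all genes 10.9% were called higher and 12.4% lower with all 12 libraries, and 13.9% and 18% without that replicate. In edgeR's test no gene of the 26 in the respiratory chain list passed (median 0.36), with 2 at an unadjusted p under 0.05. Without that library 21 passed (median 0.54). Fatty acid synthesis had 3 of 15 higher (5 without that library), the brown and beige list 4 of 13 (8), and the fat mass list 3 of 9 lower (5). The matrix list had 3 of 22 lower (8). For macrophages 12 of 15 markers were lower (13), and for interferon genes 3 of 15 (13). Fatty acid oxidation had 1 of 19 higher (9 without that library, and 1 lower) and branched-chain breakdown 0 of 17 (5). The adipocyte list had 0 of 16 higher and 0 lower (1 and 1).

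**Figure D5:**
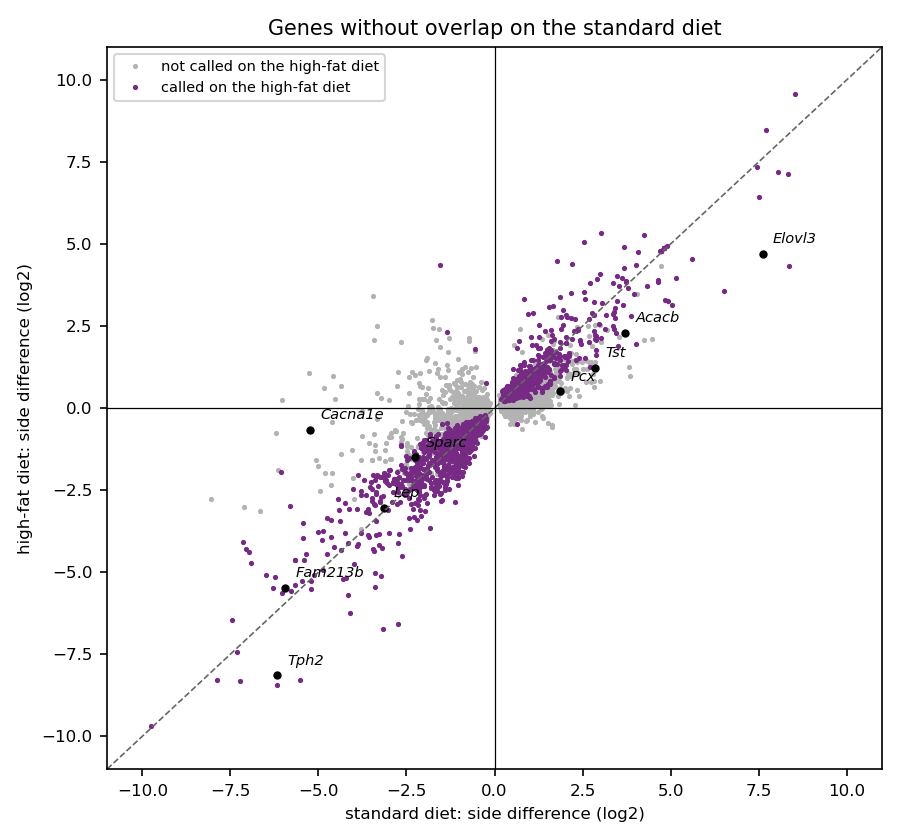
Side difference (log2) on the standard diet (horizontal) and on the high-fat diet (vertical) for the 3894 genes without overlap on the standard diet that could be tested on both; purple points were called on the high-fat diet, the dashed line marks equal differences, and 9 named genes are shown in black. Most points lie in the quadrants of equal sign, and many are nearer to 0 on the vertical axis.

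The change of the side difference with diet was tested in all 24 libraries. The interaction was called for 467 of 20035 genes (2.33%), for 67 of the 1853 higher genes (3.62%) and for 123 of the 2067 lower genes (5.95%). That total depended on single libraries, from 106 when NZO/HiLtJ high-fat replicate 2 was left out to 1729 when CAST/EiJ high-fat replicate 3 was. Over all genes 1.18% had a higher and 1.15% a lower side difference on the high-fat diet. All 67 of the higher genes and 85 of the lower ones had a smaller difference on the high-fat diet, and 38 lower genes a larger one. Because the standard-diet values chose the genes, a smaller value on the other diet is partly built into this count. Tst did not pass (adjusted p = 0.07). Fdft1 was higher by 1.01 on the standard diet and not called on the high-fat diet (-0.25), a change of -1.27 (adjusted p = 0.00175). In the matrix list 6 of 22 genes passed, among them Col6a1, Col6a2 and Col6a3, which were lower in the wild-derived side on the standard diet and were not called on the high-fat diet.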

How the data were processed

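Inguinal fat of 24 mice was sequenced, 3 per strain and diet. The submitters' processing notes name CASAVA 1.8.0, RSEM 1.2.1, Bowtie 0.12.8 and the builds NCBIM37 and mm9, with no role or order. The authors deposited RSEM estimated counts per gene, which are whole numbers in the table and were used as deposited. A second table that the authors deposited holds the same counts divided by each library's upper quartile, a signal used only in 1 alternative. The strain sequence used for alignment is not given in the sources used here, and all libraries carry the same lane label.

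Symbols were found for 32919 of 37991 gene identifiers. In R 4.3.3, edgeR 4.0.16 filtered genes by expression within groups (18953 removed), scaled by trimmed means (TMM) and fitted 1 coefficient per strain to the 12 standard-diet libraries, with a 2-sided quasi-likelihood test of the mean of CAST/EiJ and WSB/EiJ minus that of C57BL/6J and NZO/HiLtJ. P-values were adjusted by Benjamini-Hochberg over all genes. Overlap of the sides was judged on TMM-scaled CPM. The high-fat libraries were fitted apart, and the diet interaction in all 24. Each side holds 2 strains, so p-values measure the spread between mice of these 4 strains and not between strains. Alternatives used DESeq2 1.42.0, limma-voom (limma 3.58.1), other scalings and filters, strain means, and fits without single libraries. The procedure was tested on simulated data that held spread between libraries but no strain differences within a side, so that test does not cover such differences.

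The named genes were the sulfide list, the 10 highest and 10 lowest differences among genes called, without overlap, with a mean of at least 5 CPM on the higher side and an unambiguous symbol, the 6 most abundant per direction that differed by at least 1, and up to 3 per direction of each list by adjusted p. Other genes named were chosen after their values were seen. One gene that the rule selects is not reported here. The members, lists and tests were chosen with earlier results of these data known. List and gene values leaving out CAST/EiJ high-fat replicate 1 were added after seeing the data. Upstream sequences are from RefSeq, build GRCm38.p6.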

Additional observations from a re-analysis of the deposited data

Results flagged for a closer look

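For 13 genes of the pathway lists and the macrophage markers the side difference was itself found to differ between the diets, in edgeR's quasi-likelihood fit of 24 libraries with p adjusted over all genes. The values are high-fat minus standard diet on the log2 scale. Of the other marker genes, Ttn of muscle (-6.30), Krt8 (4.58) and Krt19 (2.95) of epithelium passed as well. Matrix genes made up 6 of the 13. Col1a1 changed by 2.22 (adjusted p = 0.0247), Col1a2 by 1.56 (adjusted p = 0.0405), and the collagen VI genes Col6a1, Col6a2 and Col6a3 by 1.69, 1.8 and 1.82 (adjusted p = 0.0448, 0.039 and 0.0455). Thbs1, a matricellular protein, changed by 1.91 (adjusted p = 0.0266). With CAST/EiJ high-fat replicate 1 left out these 6 were 1.63, 1.14, 1.31, 1.53, 1.5 and 1.66, all still past the threshold. Other tissue markers moved with them. On the high-fat diet 7 of 8 smooth muscle markers and 6 of 7 epithelial markers were called higher in the wild-derived side (medians 3.40 and 3.98). Summed smooth muscle markers were 2200, 1330 and 6140 CPM in the WSB/EiJ mice and 12500 CPM in CAST/EiJ high-fat replicate 1, and their part in the result was not tested.

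The other 7 genes changed the opposite way. Of 15 macrophage markers 3 passed, with changes of -0.82 for Cd68 (adjusted p = 0.0219), -1 for Adgre1, the F4/80 antigen (adjusted p = 0.0328), and -1.89 for Itgax (adjusted p = 0.0375). Summed macrophage markers reached 3730 to 5260 CPM in NZO/HiLtJ mice on that diet. In the sterol list Fdft1 changed by -1.27 (adjusted p = 0.00175) and Cyp51, a demethylase of cholesterol synthesis, by -0.98 (adjusted p = 0.0277). Cth of transsulfuration changed by -1.54 (adjusted p = 0.0348) and the elongase Elovl5 by -0.87 (adjusted p = 0.0495). Without the same library these 7 values were -0.81, -0.90, -1.95, -1.23, -0.95, -1.34 and -0.86, again past the threshold. In that fit Cd163, another macrophage marker, went the other way (1.23, adjusted p = 0.0038).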

How the results depend on the processing

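With strain means as the units no gene passed on either diet (0 higher and 0 lower), although 2435 genes had an unadjusted p under 0.05 on the standard diet, and Tst was 2.83 (adjusted p = 0.335), so the calls hold for mice of these strains. The genes called higher on the high-fat diet numbered 3220 with DESeq2, 1385 with limma-voom, 4279 with all 24 libraries in the fit (3780 lower) and 3723 when libraries at or above 5 CPM of Epcam were left out (4087 lower). Of the higher genes without overlap, 852 and 1167 were called on that diet in the last 2 settings. The interaction gave 261 calls with no filter, 1986 with DESeq2, 233 with limma-voom and 3516 without the Epcam libraries. Leaving those out removed every WSB/EiJ high-fat library and WSB/EiJ standard replicate 3. The high-fat side was then CAST/EiJ alone, while the standard-diet side still averaged CAST/EiJ and WSB/EiJ. The 3516 calls therefore also hold differences between CAST/EiJ and WSB/EiJ and are not the same interaction. The cause of the other changes was not tested.

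Leaving out each library in turn gave 4834 to 5261 genes higher and 5649 to 5974 lower on the standard diet, 1929 to 2271 and 2128 to 2410 without overlap, and a Tst difference of 2.59 to 3.05. On the high-fat diet it gave 923 to 2768 higher and 1736 to 3581 lower, and 280 to 976 and 728 to 1319 of the genes without overlap. The interaction ranged from 106 to 1729. NZO/HiLtJ against C57BL/6J ranged from 3411 to 5581. Cbs turned from -0.01 to 0.01 with relative log expression scaling and DESeq2, to 0.04 with limma-voom and strain means, and ranged from -0.16 to 0.17 without single libraries (positive at 0.03, 0.02, 0.17, 0.03, 0.05 and 0.04). The deposited upper-quartile values gave 1579 higher and 2303 lower genes without overlap. On the standard diet the 24-library fit called 22 respiratory chain genes higher. It called 10 genes higher in each of the fatty acid synthesis, brown and beige, and branched-chain lists. In the fat mass, matrix and interferon lists it called 7, 14 and 10 genes lower. No paired analysis was possible because the labels give no replicate numbers that the groups share.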
